A study of Mus musculus with 8 samples.

Results

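RNA of uterine epithelium from control mice is described here from 3 libraries, called control 1, control 2 and control 3, of the 8 libraries in the series. They are the libraries whose genotype label reads control; the other 5 carried a conditional deletion of Smad2 and Smad3 (cKO) and were not used here. The series compared uterine epithelium of control mice with epithelium in which floxed Smad2 and floxed Smad3 were removed by Cre recombinase made from the progesterone receptor gene (Pgr-cre), a driver that is active in the uterus after birth and also in ovary, oviduct, mammary gland and pituitary. All lines had a mixed C57BL/6/129S6/SvEv background. The labels do not say which floxed or Cre alleles the control mice carried, nor whether each control library came from a separate mouse, so the spread between libraries may be partly technical. How old the mice were, where they stood in the estrous cycle and how the epithelium was separated from the uterine wall are, in the sources used here, not given. Total RNA had been made into cDNA with both random and poly-dT primers and sequenced on an Illumina HiSeq instrument.

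The epithelium of the uterus lines the lumen and forms the glands of the endometrium. It is a polarised secretory sheet held together by tight junctions and desmosomes on a keratin network of the simple type, and it releases antimicrobial proteins, complement factors and mucins into the lumen. Estrogen and progesterone act on it through their nuclear receptors, in the epithelial cells and in the stroma beneath, and the set of genes it expresses changes over the cycle.

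Values are FPKM, a measure of fragments that is divided by the length of the transcript and by the library's mapped total, as the authors computed them for each RefSeq transcript. Transcripts were summed to 24346 gene symbols, 6 symbols whose estimate was not marked OK in every control library were dropped, and the 24340 others were divided by a factor per library (0.958 for control 1, 1.03 for control 2 and 1.01 for control 3) that equalised the typical gene. These scaled FPKM values are given throughout in the order control 1, control 2, control 3. The width of the deposited intervals corresponded to about 53.0, 54.4 and 56.1 M mapped fragments. Of the symbols, 10612 stood at 1 FPKM or more in all 3 libraries, 439 at 100 or more and 21 at 1000 or more, while 6976 were listed at 0 in all 3. A single group of 3 libraries allows no test between conditions, and none was made.

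RNA of a few secreted and cornified envelope proteins dominated the control epithelium. The most abundant symbol was Lcn2, which encodes lipocalin 2, an antimicrobial protein that binds bacterial siderophores. Lcn2 stood at 17409, 17843 and 18502 FPKM, or 4.79% ± 0.294 of all FPKM (SD, n = 3), and its 3 values differed by a CV of 3.07%. Sprr2f, a small proline-rich protein of the cornified envelope, came second at 12937, 6680 and 6627. Control 1 was thus alone at the high end for Sprr2f, 1.95-fold above the lowest library. Prap1, a proline-rich acidic protein secreted by uterine and gut epithelium, followed at 5322, 9423 and 6588, with control 2 at the high end. Next were Plet1, a surface protein of epithelial progenitors, at 5526, 4950 and 4692, and Sprr2d, a close relative of Sprr2f, at 5709, 3813 and 3757.

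The 10 most abundant symbols together held 15.7% ± 0.805 of all FPKM (SD, n = 3), the 100 most abundant 35.1% ± 0.781 and the 1000 most abundant 64.7% ± 1.02. Among the 25 most abundant were further secreted proteins. Clca1, a secreted regulator of chloride channels and mucus, stood at 2916, 3815 and 2515. Cfb, factor B of the alternative complement pathway, stood at 2899, 2870 and 3166. Pglyrp1, which binds bacterial peptidoglycan, stood at 1717, 2051 and 2743, and Chil1, a chitinase-like secreted protein, at 2223, 1123 and 1793. Fcgbp, a mucin-like protein, was at 1467, 1580 and 1160, and Wfdc2, a whey acidic protein family member found in many secretory epithelia, at 1203, 1168 and 1067. Pglyrp1 and Chil1 differed most between libraries in this set, and Cfb and Wfdc2 least.

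Mir682, a noncoding model of 96 bases, was seventh in this order at 4364, 2418 and 2906, a listed value that such a short model makes uncertain. The remaining coding genes of the top 25 were cellular. Tmsb4x, thymosin beta 4, which binds actin monomers, stood at 3402, 3138 and 3322. Plac8 was at 3305, 2897 and 3151, Cbr2, a carbonyl reductase, at 2621, 2947 and 3284, and Ly6a, a GPI-anchored surface protein, at 1786, 2418 and 2105. Ctsl, the lysosomal protease cathepsin L, which uterine epithelium also secretes, was at 1841, 2034 and 2252. The CVs of these 5 genes lay between 4.12% and 15.0%. Eef1a1 (translation elongation) was at 2436, 1746 and 2072, Rpl41 (large ribosomal subunit) at 1582, 1223 and 1470, and Krt19 (a keratin of simple epithelia) at 1706, 1992 and 1744. Gsto1, a glutathione transferase, was at 1648, 2053 and 1086 and Fam213a, a peroxiredoxin-like protein, at 1750, 1295 and 896, both lowest in control 3.

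**Figure D1:**
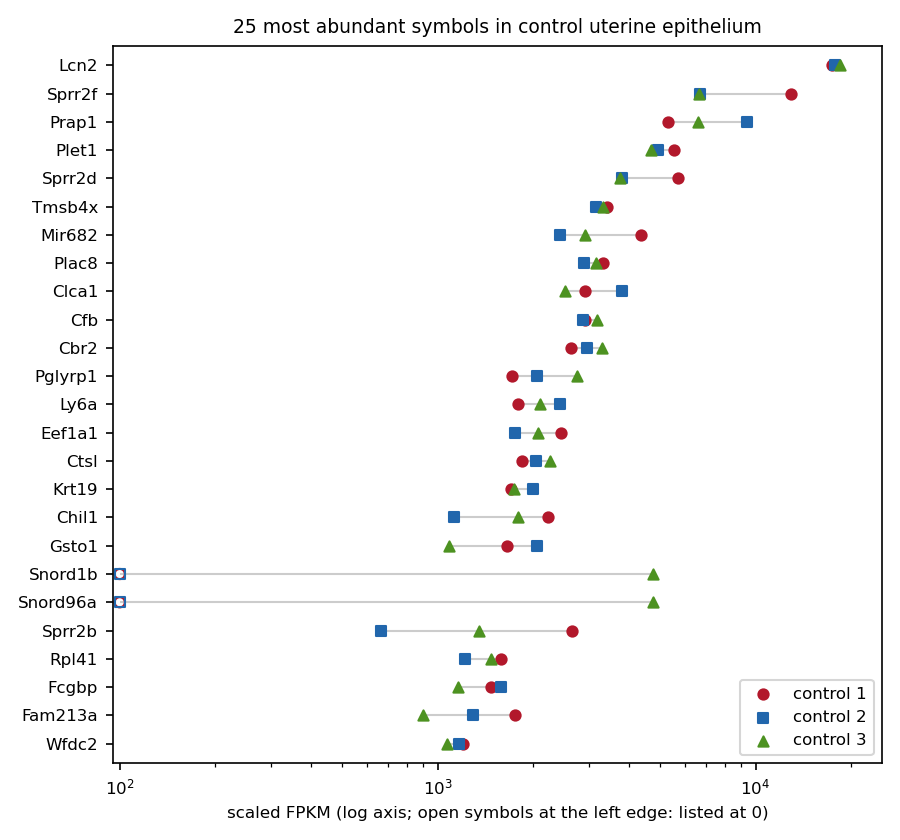
Scaled FPKM (log axis) of the 25 symbols with the highest mean, 1 row per symbol and 1 mark per control library; open marks at the left are libraries where the symbol is listed at 0. Lcn2 is highest in all 3 libraries, Sprr2f and Sprr2b are highest in control 1, and Snord1b and Snord96a have a value in control 3 and are listed at 0 in the other two.

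Of 5 genes put forward as markers of these samples (Lcn2, Sprr2f, Prap1, Krt13 and Muc1), 4 were abundant. Muc1, the transmembrane mucin of the apical surface, stood at 533, 540 and 493. Krt13, a keratin of stratified mucosal epithelium, went against its use as a marker here, at 0.329, 0.238 and 0.546 FPKM. On mm10, Lcn2 lies at chr2:32384637-32387739, Sprr2f at chr3:92365187-92366442, Prap1 at chr7:140093396-140097203, Krt13 at chr11:100117596-100121495 and Muc1 at chr3:89229056-89233381, each a single transcript in the tables.

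The sequence just upstream of the start is printed for Lcn2, Prap1, Plet1, Muc1 and 4 Sprr2 genes. These 4 lie in 1 cluster on chromosome 3 and were all highest in control 1. Sprr2e, at rank 658 by mean, is not among the most abundant symbols. Sprr2a1, Sprr2a2 and Sprr2a3 of the same cluster were more abundant than Sprr2e and highest in control 3, and they are not shown. Each line gives the 80 bases before the annotated start, 5′ to 3′ on the strand of the gene, from RefSeq on GRCm38.p6, whose coordinates are those of mm10. Capitals mark TATAAA, the core of the TATA box, where it begins within the window from 45 to 20 bases before the start. The regions are chr2:32387740-32387819 (minus strand) for Lcn2, chr3:92365107-92365186 (plus strand) for Sprr2f, chr3:92339060-92339139 (plus) for Sprr2d, chr3:92316625-92316704 (plus) for Sprr2b, chr3:92352063-92352142 (plus) for Sprr2e, chr7:140093316-140093395 (plus) for Prap1, chr9:50494445-50494524 (plus) for Plet1 and chr3:89228976-89229055 (plus) for Muc1.
Lcn2: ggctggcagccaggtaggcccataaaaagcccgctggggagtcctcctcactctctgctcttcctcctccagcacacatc
Sprr2f: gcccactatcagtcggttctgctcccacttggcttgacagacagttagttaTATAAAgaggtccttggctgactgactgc
Sprr2d: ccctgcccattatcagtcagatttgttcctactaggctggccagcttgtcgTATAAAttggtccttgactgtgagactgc
Sprr2b: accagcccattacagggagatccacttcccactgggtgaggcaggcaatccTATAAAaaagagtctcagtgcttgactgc
Sprr2e: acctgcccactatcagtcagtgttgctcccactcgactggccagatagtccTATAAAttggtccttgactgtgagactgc
Prap1: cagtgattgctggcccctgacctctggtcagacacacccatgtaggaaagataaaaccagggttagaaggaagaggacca
Plet1: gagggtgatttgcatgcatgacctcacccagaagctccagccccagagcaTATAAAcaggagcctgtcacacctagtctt
Muc1: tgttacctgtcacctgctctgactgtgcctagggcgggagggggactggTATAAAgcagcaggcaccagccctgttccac

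The hexamer TATAAA began 29 bases before the start in all 4 Sprr2 genes, 30 before that of Plet1 and 31 before that of Muc1, and these letters were not in that window of Lcn2 or Prap1. Sprr2d and Sprr2e shared 69 of the 80 bases at the same position, or 86.3%, whereas the other Sprr2 pairs shared between 42.5% and 56.3%. Of the 100 most abundant symbols, 60 were matched to a RefSeq promoter, and 8 of the 60 (13.3%) held TATAAA on the gene's strand in that window. The share was 2.28% over all 27025 RefSeq promoters and 1.49% over the 7389 matched genes at 1 FPKM or more in all 3 libraries. Sprr2f, Sprr2d and Sprr2b, related genes of 1 cluster, are among the 100 most abundant symbols and hold the hexamer. The 8 may thus not be independent of each other, and symbols without a match are not covered. Plet1 and Muc1, which hold the hexamer, had CVs of 8.44% and 4.92% between libraries. A relation of the hexamer to that spread was not tested. A match of letters is a description and was not tied to binding of any factor.

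The Sprr genes encode small cross-bridging proteins of the cornified envelope. All 16 Sprr symbols lie between positions 92215835 and 92500493 of chromosome 3, and 10 of them stood at 1 FPKM or more in all 3 libraries. Their sum was 22518, 11998 and 12830 FPKM, which is 5.76%, 3.33% and 3.44% of each library. Control 1 was above the others for the family as a whole, and controls 2 and 3 were close to each other. Sprr2b stood at 2652, 664 and 1353, so that control 2 was the low library here. Sprr2e stood at 173, 33.5 and 37.3, Sprr2g at 228, 73.4 and 65.0 and Sprr1a at 123, 39.3 and 35.2, each at least 2-fold higher in control 1 than in either other library. Sprr2a1, Sprr2a2 and Sprr2a3 were instead highest in control 3, at 172, 166 and 614. Several Sprr2 genes are near-identical copies, and how the authors' estimation divided fragments among them is not given, so single members are uncertain and the family sum is the firmer value.

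Secreted and luminal products made up 10.98% of all FPKM over the 82 symbols of the lists used for them, and 50 of the 82 stood at 1 FPKM or more in all 3 libraries. Antimicrobial and defence genes led, with 6.39% ± 0.378 (SD, n = 3); 14 of their 25 usable members reached 1 FPKM in every library, and Lcn2 alone was 74.9% of their sum. Below Lcn2, Pglyrp1, Chil1 and Wfdc2, Pigr, the receptor that carries polymeric IgA across the epithelium, stood at 578, 623 and 553. Slpi, an inhibitor of leukocyte protease, stood at 33.8, 45.4 and 42.6. The beta-defensin Defb1 was at 14.3, 7.74 and 8.86 and Defb3 at 9.32, 1.64 and 1.19, with control 1 highest for both. Reg3b, Bpifb1, Tff3 and Wfdc12, secreted defence proteins of other mucosae, were listed at 0 in all 3.

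Lactoferrin (Ltf) and complement C3 (C3) could not be placed in this order. Both were marked HIDATA, a Cufflinks status for loci with too many fragments to be estimated, in controls 1 and 2, where they are listed at 0. In control 3, where both were marked OK, Ltf stood at 6015 FPKM and C3 at 3084 FPKM as deposited, without the library factor. Both are products of uterine epithelium under estrogen. They were left out of every sum, so the defence and complement shares of these libraries are understated.

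Complement and acute phase genes held 1.15% ± 0.0487 of FPKM (SD, n = 3), of which Cfb was 69.0%, and 17 of 21 usable members reached 1 FPKM in all 3 libraries. Cp, the copper oxidase ceruloplasmin, was at 194, 169 and 190, and Cd55, which speeds decay of complement convertases on the cell surface, at 180, 172 and 155. Activators and inhibitors of complement were thus both among the abundant genes. Of the 18 members with a mean of at least 1, 3 were at least 2-fold lower in control 2 than in each other library (0.496% of all symbols were): Saa3 at 108, 35.3 and 123, Serpina3n at 17.9, 3.34 and 12.7, and Hp at 8.25, 4.03 and 8.81. Another 3 were at least 2-fold higher in control 1 than in each other library (1.88% of all symbols were): Orm1 at 14.3, 4.27 and 6.62, Orm2 at 2.91, 1.03 and 0.823, and C1s1 at 7.57, 3.38 and 3.46.

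Other uterine products came mainly from Prap1, Ctsl and Fcgbp. Spp1, osteopontin, an adhesive protein of the lumen and matrix, stood at 870, 286 and 503, with control 1 highest and control 2 lowest. Olfm1, a secreted olfactomedin protein, stood at 175, 156 and 182. Lif, the cytokine that uterine glands release at implantation, was at 66.9, 33.8 and 33.4. Of 24 members, 15 reached 1 FPKM in every library, and Spink1, Prss28, Prss29 and Scgb1a1 were listed at 0 in all 3. Among mucins, Muc4, a membrane mucin, was at 325, 364 and 387. Muc20 was at 193 and 202 in controls 1 and 2 and listed at 0 in control 3. Muc13 was at 2.96, 4.56 and 2.64. The gel-forming mucins Muc2, Muc5ac, Muc5b and Muc6 were below 1 FPKM in every library, the highest value being 0.501 for Muc2 in control 3.

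Structural genes held 8.10% of FPKM over 134 symbols, 92 of which reached 1 FPKM in all 3 libraries. The keratins were those of simple epithelium. Krt8, the type II partner of Krt18, was at 653, 832 and 749, and Krt7 at 516, 541 and 483. Krt18 was at 429, 414 and 380, so that Krt19 stood 3.98-fold, 4.81-fold and 4.59-fold above it within the libraries. Summed type I keratins exceeded type II by 1.60-fold, 1.67-fold and 1.61-fold, a ratio that varied little between libraries. Krt20 was at 23.5, 26.2 and 13.5. Krt6b, a keratin of stressed and stratified epithelium, stood at 157, 75.4 and 83.1, and its near-copy Krt6a at 21.8, 10.7 and 11.03. Krt5, a basal cell keratin, was at 0.372, 0.278 and 0.306, and Trp63, the basal cell factor p63, at 0.0259, 0.0544 and 0.0268, and of the other squamous genes Dsg3, a desmosomal cadherin, was at 4.77, 1.76 and 1.41 and Krt10 at 1.26, 1.27 and 1.55. Krt14, another basal cell keratin, was at 0.228, 4.90 and 0.652, with control 2 highest.

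The 10 general epithelial markers, among them Krt19, Krt8, Krt7, Krt18, Cldn7, Cldn3, Cldn4, Epcam and Cdh1, were all at 100 FPKM or more in every library and summed to 5344, 5659 and 5236. Their median CV was 6.21%, against 9.99% over the 11091 symbols with a mean of at least 1. Cldn7, a claudin of the tight junction strand, stood at 707, 636 and 595, and Epcam, an adhesion protein of epithelial cells, at 495, 477 and 501. Of 21 tight junction genes, 18 reached 1 FPKM in all 3 libraries. After Cldn7 came Cldn3 at 276, 257 and 260, Tjp3, a scaffold under the strands, at 133, 146 and 134, and Cldn4 at 124, 128 and 140. Cldn10 went its own way at 43.1, 12.0 and 19.1, highest in control 1, and Cldn1 was lowest there at 7.31, 15.9 and 16.0.

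Of 19 genes of adherens junctions, desmosomes and gap junctions, 15 reached 1 FPKM in all 3 libraries, with a median CV of 14.0% over those with a mean of at least 1. Ctnnb1, beta-catenin, was at 485, 394 and 375, Cdh1, E-cadherin, at 208, 160 and 167, and Ctnna1 at 134, 123 and 117. The connexins Gja1 and Gjb2 were at 69.9, 60.3 and 71.2 and at 57.5, 62.5 and 45.9. On the basal side, the laminin chains Lamb3 and Lama3 were at 79.2, 81.5 and 81.2 and at 50.7, 42.2 and 48.7. Lama5, the alpha chain of other epithelial laminins, was at 74.6, 62.2 and 79.1, and Itgb1, a beta integrin chain that binds laminin, at 95.6, 83.0 and 80.1. Col4a1 and Col4a2, the collagens of basement membrane that mesenchymal cells also make, were low and highest in control 1, at 13.3, 6.38 and 4.43 and at 8.28, 3.42 and 2.99. In the list of actin, tubulin and brush border genes, 19 of 20 reached 1 FPKM, led by Tmsb4x, Actg1 at 1356, 906 and 1045, Actb at 712, 646 and 829 and Tmsb10 at 369, 428 and 444.

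Transport genes for bicarbonate, sodium and chloride were present, 16 of 22 usable members at 1 FPKM or more in all 3 libraries. Car2, a cytosolic carbonic anhydrase, stood at 630, 637 and 541. Slc26a4, an anion exchanger, was at 182, 116 and 154, and Atp1b3, a subunit of the sodium pump, at 135, 91.3 and 88.1. The chloride channel Cftr stood at 44.2, 28.0 and 22.2. Of the water channels, Aqp4 was highest in control 2 at 13.4, 28.0 and 6.68, whereas Aqp5 was highest in control 1 at 11.8, 4.95 and 4.77.

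Receptor genes were far less abundant. Over 221 symbols they held 0.518% of FPKM, 122 reached 1 FPKM in all 3 libraries, and the median CV of those with a mean of at least 1 was 12.9%. Ifngr2, a chain of the interferon gamma receptor, led at 180, 188 and 197. By mean, Ddr1 and Tgfbr2, given below, came next. They were followed by Ifngr1, the partner of Ifngr2, at 57.6, 61.8 and 52.2, and Il13ra1 at 62.4, 53.4 and 49.3. Ifnar2, of the type I interferon receptor, was at 38.3, 38.8 and 45.9. The sensor of bacterial lipoproteins Tlr2 was at 32.1, 35.3 and 35.1. In all, 28 of 37 cytokine and innate receptors reached 1 FPKM in every library.

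Among receptor tyrosine kinases, 27 of 53 reached 1 FPKM in all 3 libraries. Ddr1, a collagen receptor, was at 80.5, 53.9 and 56.1, Ephb2 at 31.8, 34.5 and 35.9, Ryk, a Wnt co-receptor, at 29.8, 33.7 and 32.7, and Met, the receptor of hepatocyte growth factor, at 32.6, 29.0 and 25.7. Of the ERBB family, Erbb2 stood at 32.1, 25.4 and 25.3 and Erbb3 at 32.7, 21.2 and 21.3. Egfr was lower at 7.63, 6.44 and 4.39, and Erbb4 was listed at 0 in all 3. Lrp5, a Wnt co-receptor, was at 37.1, 34.9 and 35.8, ahead of the Frizzled receptors Fzd1 at 13.1, 17.0 and 17.7, Fzd7 at 12.7, 13.2 and 12.2 and Fzd6 at 10.6, 12.0 and 13.3. G protein-coupled receptors were led by the orphan receptors Gprc5a at 42.8, 49.7 and 40.0 and Gprc5c at 28.6, 36.4 and 35.5, by F2rl1, a protease-activated receptor, at 36.4, 29.0 and 25.6, and by Lpar1, a receptor of lysophosphatidic acid, at 33.7, 14.8 and 15.7. Lpar1 was the member of these 4 with a library apart, control 1.

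Transforming growth factor beta (TGF-beta) receptors bind their ligand as a pair and phosphorylate SMAD2 and SMAD3, the proteins whose genes the study deleted in its other group. In the control libraries Smad3 stood at 28.1, 32.5 and 26.2 and Smad2 at 5.85, 6.53 and 6.34. Smad4, the partner they share with other SMADs, was at 19.0, 17.1 and 16.7. Smad1 and Smad5 of the BMP branch were at 16.1, 15.4 and 13.0 and at 8.49, 9.03 and 10.1, and the inhibitory Smad7 was at 6.23, 7.15 and 5.80. Per length, Smad3 was the most abundant of the SMAD genes in every library. None of the 7 SMAD genes that reached 1 FPKM differed by 2-fold between any libraries. Few symbols of any kind did so, from 2.24% to 5.43% by pair of libraries, so the SMAD genes were not set apart by this.

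Of 14 TGF-beta family receptors, 9 reached 1 FPKM in all 3 libraries. Tgfbr2, the ligand-binding chain, was at 51.5, 63.0 and 60.9, Acvr1b, an activin receptor, at 30.8, 20.7 and 20.03, Bmpr1a at 20.1, 19.8 and 18.3 and Tgfbr1, the signalling chain, at 16.2, 16.5 and 16.7. Of 21 ligand genes, 5 did so. The activin beta B chain Inhbb led them at 41.7, 38.0 and 38.7, with Tgfb1 at 12.8, 15.9 and 13.2 and Gdf15, a stress-induced family member, at 16.1, 9.73 and 11.2. Tgfb3 was at 3.15, 0.882 and 1.12, highest in control 1. Tgif1, which represses SMAD target genes, was abundant at 105, 97.5 and 102.

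Transcription factor genes held 0.864% of FPKM over 157 symbols, and 83 reached 1 FPKM in all 3 libraries. Elf3, an ETS factor restricted to epithelium, stood at 674, 553 and 466 and was the 1 listed factor among the 100 most abundant symbols. Irf7, which drives interferon genes, was at 209, 238 and 237, and Bhlhe40, a basic helix-loop-helix repressor, at 237, 221 and 201. Pax8, which specifies the Müllerian duct, was at 76.4, 69.1 and 75.9, and Sox7 at 64.4, 55.1 and 64.0. Further epithelial factors were Ehf at 62.3, 53.3 and 47.9, Emx2 at 19.5, 24.8 and 21.1 and Pax2 at 10.5, 19.8 and 17.8. The list of epithelial and Müllerian tract factors had a median CV of 13.7%, and Pax2 was lowest in control 1. Of the NF-kB, STAT and IRF genes, 24 of 27 with the C/EBP genes included reached 1 FPKM, led after Irf7 by Nfkbiz at 99.4, 100.2 and 86.8, Irf1 at 61.5, 84.2 and 71.1 and Stat3 at 77.2, 67.7 and 61.1.

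Of 17 Krüppel-like factors, which regulate growth and maturation of epithelia, 11 reached 1 FPKM. Klf4 led at 112, 57.6 and 52.1, with Klf5 at 52.0, 53.1 and 52.2, Klf3 at 52.0, 40.3 and 45.3 and Klf6 at 53.8, 31.8 and 32.2. Klf5 was nearly the same in the 3 libraries, and Klf4 and Klf6 were highest in control 1.

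Hox genes set position along the reproductive tract, and those of the HoxA cluster are known for patterning it. In these libraries 7 of 39 Hox genes reached 1 FPKM in every library, all of the HoxB cluster. Hoxb6 stood at 39.8, 41.4 and 38.4, Hoxb7 at 32.4, 38.7 and 35.5, Hoxb8 at 22.0, 28.9 and 24.5 and Hoxb3 at 10.6, 12.6 and 14.4. The HoxB cluster held 93.0%, 97.8% and 97.1% of all Hox FPKM. Hoxa10, which uterine stroma and epithelium both use, was at 3.10, 0.507 and 0.943, and Hoxa11 at 1.32, 0.266 and 0.556. Both had control 1 highest, control 3 next and control 2 lowest. Hoxa11 is also a member of the stromal fibroblast list used below. No factor in a list of 11 mesenchymal factors reached 1 FPKM in all 3 libraries. The highest were Tcf21 at 1.10, 0.499 and 0.511, Snai1 at 0.625, 0.361 and 0.513, Prrx1 at 0.817, 0.193 and 0.259 and Twist1 at 0.464, 0.466 and 0.208.

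Hormone-related genes were unevenly represented. Esr1, estrogen receptor alpha, stood at 35.7, 31.1 and 27.8, while Esr2 was at 0.00601, 0.0271 and 0.0338. Pgr, the progesterone receptor, from whose locus the Cre of the study is made, was at 2.03, 1.32 and 0.897. Nr1h2, a liver X receptor, was the most abundant nuclear receptor at 41.6, 45.6 and 44.0. It was followed by Esr1, Esrra at 29.2, 28.8 and 29.6 and Rxra at 17.5, 19.4 and 21.3. Of 48 nuclear receptors, 22 reached 1 FPKM in all 3 libraries.

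Several listed genes known to be induced by estrogen in the uterus were abundant. Of 11 usable members, 8 were at 10 FPKM or more in every library, and they summed to 7.78% ± 0.867 of FPKM (SD, n = 3), of which Lcn2 was 61.3%. Lcn2, Sprr2f, Sprr2b and Muc1 led them. Lcn2, Sprr2f and Muc1 are also among the proposed markers, so the height of this sum is not independent of that choice. Sprr2a1 was at 116, 103 and 172, highest in control 3. The peptidylarginine deiminases convert arginine to citrulline in proteins: Padi1 stood at 415, 117 and 131, Padi2 at 237, 43.8 and 53.9 and Padi4 at 47.4, 24.6 and 28.8. Control 1 was highest for all 3 Padi genes. Greb1, an early target of estrogen receptor alpha, was at 2.50, 0.980 and 3.22. Of 14 genes known to be induced by progesterone, 7 reached 1 FPKM in all 3 libraries and 4 reached 10. Hdc, which makes histamine, was at 62.2, 57.5 and 116, Gata2 at 34.7, 34.8 and 30.6, Irg1 at 21.9, 27.1 and 41.2 and Gpx3 at 23.7, 10.2 and 13.9. The epithelial progesterone targets Ihh, Areg and Calca were at or near 0, at 0.0166, 0.0225 and 0.0297 for Ihh and at 0.329, 0.330 and 0.197 for Areg, and Calca was listed at 0 in control 2 and at 0.0266 and 0.0238 in controls 1 and 3. Both lists were drawn up from general knowledge, with earlier results of these data known, and do not date these libraries within the cycle.

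**Figure D2:**
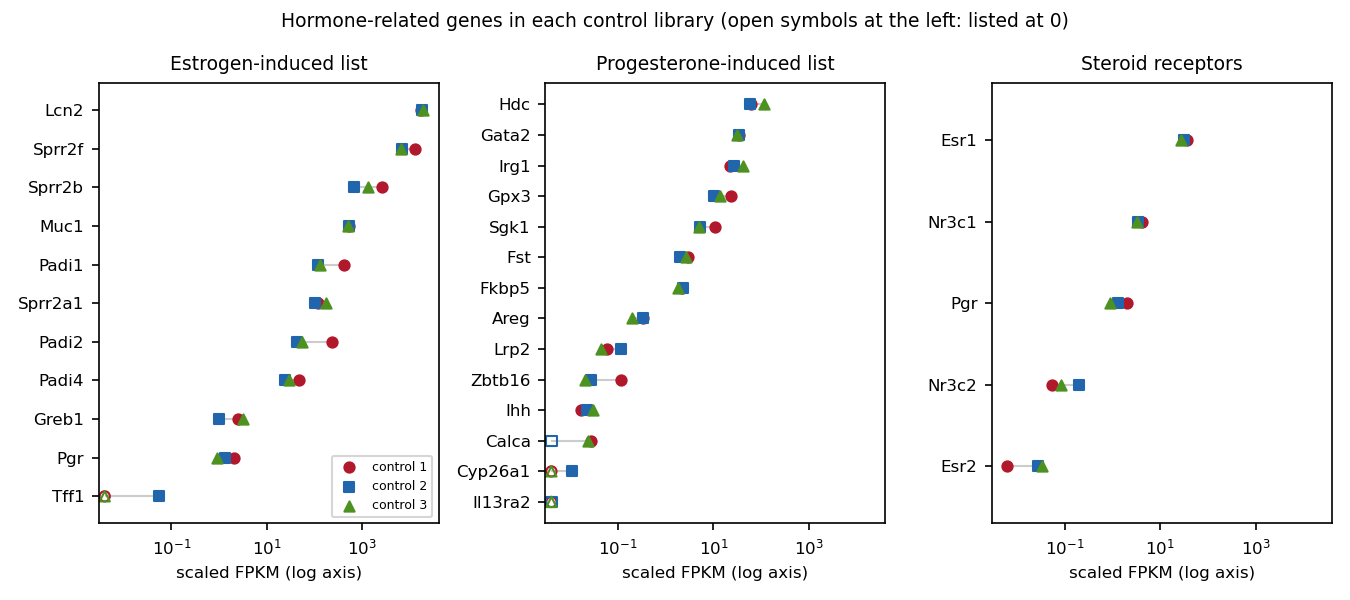
Scaled FPKM (log axis) of the estrogen-induced list, the progesterone-induced list and 5 steroid receptors, 1 mark per control library. The estrogen-induced list reaches 18502 (Lcn2, control 3), the progesterone-induced list 116 (Hdc, control 3), and Esr1 lies above the other steroid receptors drawn in all 3 libraries.

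Dividing cells left little RNA. Of 23 mitosis genes, 3 (Kif23, Ube2c and Top2a) reached 1 FPKM in all 3 libraries and none reached 10. Kif23 stood at 5.16, 7.84 and 5.57, Ube2c at 2.51, 3.71 and 2.44, Top2a at 1.14, 2.22 and 1.34 and Birc5 at 1.14, 1.46 and 0.841. Mki67, the proliferation antigen Ki-67, was at 0.584, 0.696 and 0.398. Control 2 was highest for all 5.

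The listed luminal and glandular markers differed in how many members reached 1 FPKM. Lif, named above as a cytokine that uterine glands release, is not in the glandular list. Of 7 luminal markers, 6 reached 1 FPKM in all 3 libraries: Calb1, a calcium-binding protein, at 90.2, 98.2 and 316, Klf5, Msx1 at 19.3, 37.4 and 36.9, Met, Wnt7a, the luminal Wnt ligand, at 23.0, 22.9 and 27.4, and Lpar3 at 8.59, 9.63 and 8.03. Of 10 glandular markers, 2 did so, Sox9 at 18.6, 18.9 and 12.2 and Aldh1a1 at 1.75, 2.17 and 1.97. Foxa2, the factor of gland formation, was at 0.987, 0.995 and 0.454, Lgr5 was at 0.0960, 0.796 and 0.705, and the gland products Spink1, Prss28, Prss29 and Ttr were listed at 0. Of 8 genes listed for ciliated cells and oviduct, 1 reached 1 FPKM in all 3, Ovgp1, a product of the secretory cells of the oviduct, at 2.70, 2.13 and 1.59. Of the ciliated cell genes, Rsph1 was at 0.749, 0.565 and 0.578 and the factor Foxj1 at 0.0391, 0.0141 and 0.0632. In bulk RNA, fewer cells of a type and less RNA per cell cannot be told apart.

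Each library also held RNA of cells other than epithelium, in different amounts. A gene is called apart in a library here when its scaled FPKM plus 0.1 was at least 2-fold above, or at least 2-fold below, that of each of the other two, over the 11091 symbols with a mean of at least 1. This compares single libraries and is not a test. Control 1 was apart on the high side for 208 symbols (1.88%). Of the 12 smooth muscle genes that passed the mean of 1, all 12 were among the 208, and the sum of the 14 listed members was 496, 88.8 and 145 FPKM. Tagln, an actin-binding protein of smooth muscle, stood at 124, 26.0 and 47.5. Acta2, smooth muscle actin, stood at 79.1, 11.8 and 18.0, Actg2, enteric smooth muscle actin, at 63.6, 7.21 and 10.3 and Myl9, a myosin light chain, at 52.3, 7.64 and 11.7. Control 1 was highest and control 2 lowest for each of them. Myh11, the smooth muscle myosin heavy chain, was at 24.4, 2.81 and 6.71. Of the epithelial markers that passed, 0 of 10 were apart in any library. This is near the share over all symbols, which ran from 0.234% to 1.88% by library and direction.

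Stromal fibroblast markers followed another order. Their sum was 358, 239 and 150 FPKM, highest in control 1 and lowest in control 3. Of the 13 that passed the mean of 1, 5 (Col3a1, Col1a2, Postn, Lum and Col6a3) were apart on the high side in control 1 (1.88% of all symbols were). Dcn, a matrix proteoglycan, was at 66.6, 47.2 and 34.5, Col3a1, a fibrillar collagen, at 52.9, 22.3 and 15.5, and Col1a1 at 37.3, 21.3 and 12.8. Vim, the intermediate filament of mesenchymal cells, had control 2 highest at 45.1, 65.8 and 29.9. Postn, which myometrium and stroma both express, was at 24.9, 3.33 and 5.21. The defining stromal factor Hand2 was at 0.548, 0.313 and 0.147. The sum of the 10 epithelial markers exceeded the stromal sum 14.9-fold, 23.6-fold and 34.8-fold and the smooth muscle sum 10.8-fold, 63.7-fold and 36.2-fold. All the lists of other cell types together held 0.334%, 0.228% and 0.256% of FPKM.

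RNA of genes known from neutrophils was highest in control 3, where 78 symbols (0.703%) were apart on the high side. Of 6 neutrophil and eosinophil genes that passed the mean of 1, 4 were among them, and the list summed to 219, 259 and 424 FPKM. S100a9, a calcium-binding protein of neutrophils that epithelium can also make, stood at 165, 197 and 276 and S100a8 at 41.3, 48.0 and 111. Csf3r, the receptor of granulocyte colony-stimulating factor, was at 4.82, 4.72 and 13.9, Il1r2, a decoy receptor of interleukin 1, at 4.95, 5.33 and 13.6 and Cxcr2, a chemokine receptor, at 2.47, 3.25 and 7.72. All 5 were highest in control 3. The granule genes Elane, Mpo and Ngp and the eosinophil genes Epx and Prg2 were at or near 0 in every library. The highest value among them was 0.226, for Mpo in control 1. Macrophage and dendritic cell markers summed to 170, 146 and 179, of which Cd68, a lysosomal protein of macrophages and some other cells, was 62.8%. Cd68 stood at 122, 83.1 and 107, Cd74, the invariant chain of MHC class II, at 27.0, 47.0 and 47.7, Fcgr3 at 4.75, 4.71 and 7.54 and Aif1 at 2.41, 4.12 and 4.18.

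Most markers of mesothelium, the outer lining of the uterus, were highest in control 2, where 26 symbols (0.234%) were apart on the high side. Of its 5 markers, 3 were among them. Msln, mesothelin, stood at 6.13, 16.6 and 5.69, Upk1b at 2.00, 6.00 and 2.44 and Lrrn4 at 1.04, 2.31 and 1.10. Upk3b was also highest there, at 3.94, 7.43 and 4.20, while Wt1 was highest in control 1, at 1.36, 1.19 and 0.877. Krt14, Krt12 and Krt23 were also highest in control 2. Endothelial markers summed to 14.7, 9.31 and 10.3, red cell markers to 21.7, 30.6 and 19.7 and lymphocyte markers to 8.03, 8.40 and 7.56. Of endothelial genes, Egfl7 was at 2.63, 1.44 and 2.36 and Esam at 2.66, 1.92 and 1.81. Of haemoglobin genes, whose copies are near-identical, Hba-a1 was at 7.35, 17.6 and 11.5 and Hbb-b1 at 5.75, 9.43 and 5.89. Cd79b led the lymphocyte list at 4.40, 6.19 and 4.70, and Gzma was at 1.20, 0.936 and 0.952. Cd3e, which defines T cells, did not exceed 0.133 in any library. Markers of ovary, mast cells, adipocytes and nerve did not exceed 3.04 in sum in any library.

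**Figure D3:**
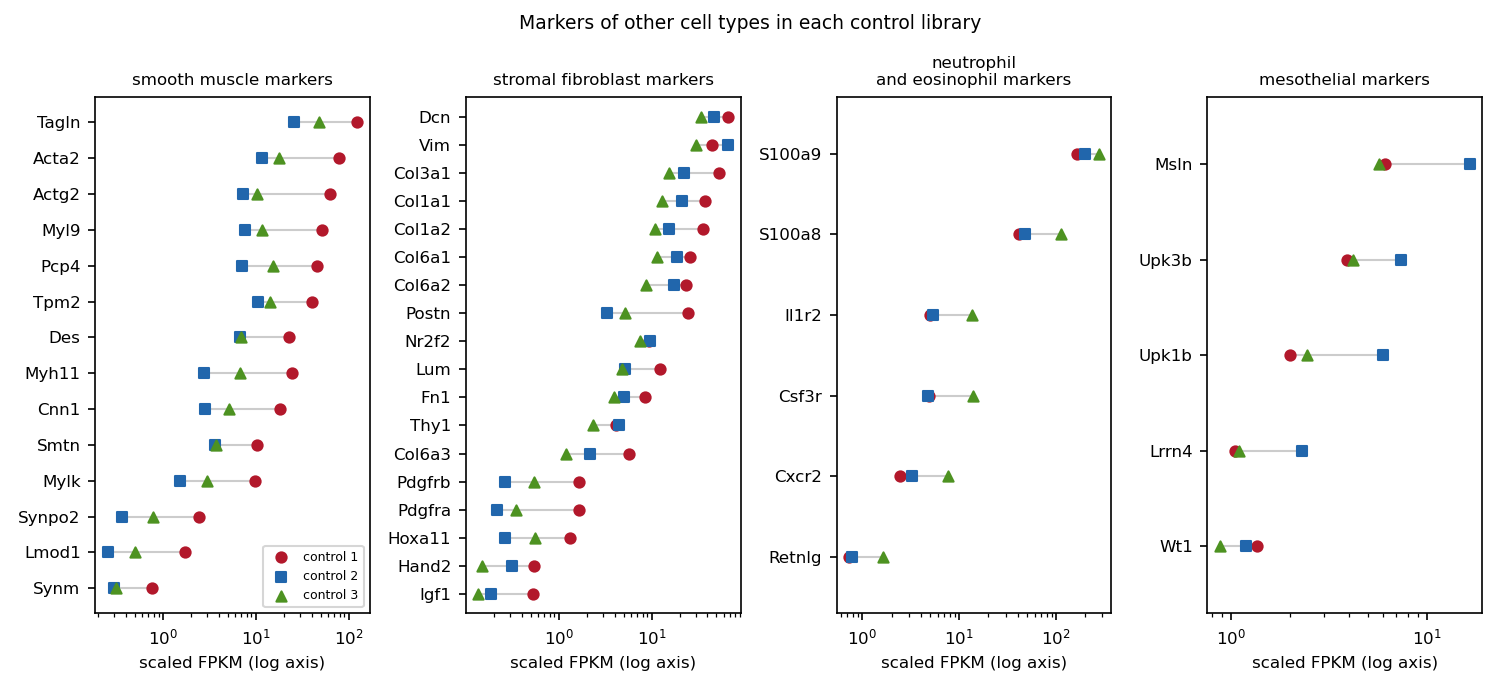
Scaled FPKM (log axis) of the markers of smooth muscle, stromal fibroblasts, neutrophils and eosinophils, and mesothelium, 1 mark per control library; members below 0.3 in every library are not drawn. Control 1 is highest for every smooth muscle gene drawn, control 3 for every neutrophil and eosinophil gene drawn, and control 2 for 4 of the 5 mesothelial genes.

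**Figure D4:**
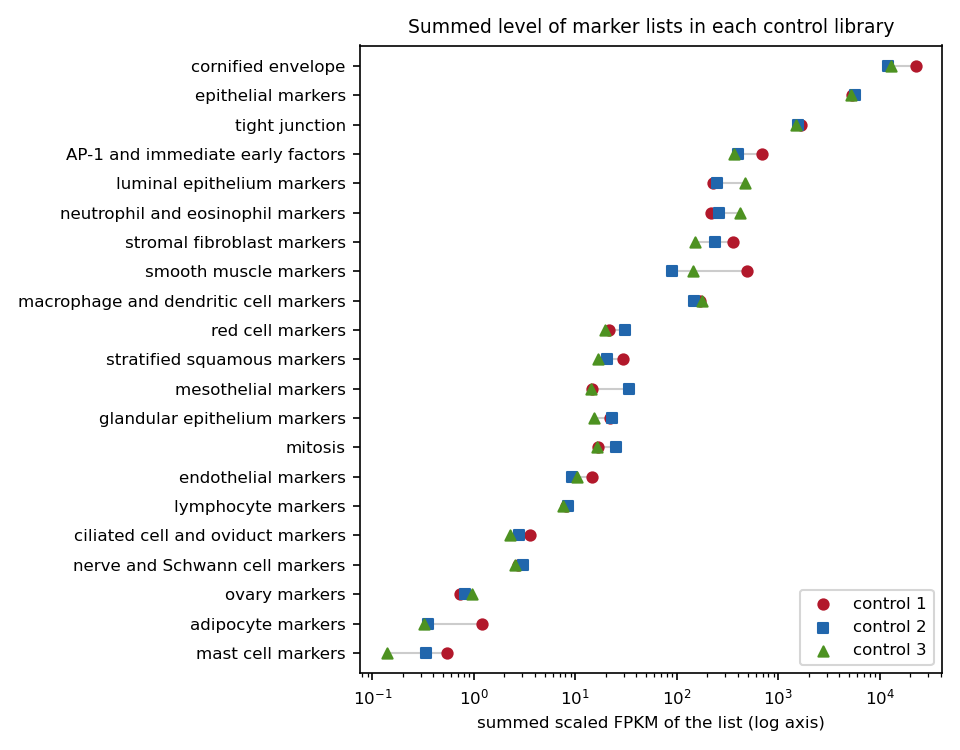
Summed scaled FPKM (log axis) of marker lists, 1 row per list and 1 mark per control library, ordered by mean. Epithelial markers lie between 5236 and 5659 in the 3 libraries, while smooth muscle markers spread from 88.8 to 496.

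Immediate early genes, which are switched on within minutes of a stimulus, were highest in control 1. Of the 13 AP-1 and immediate early factors that passed the mean of 1, 6 were apart there on the high side (1.88% of all symbols were). The list summed to 698, 401 and 369. Fos stood at 242, 111 and 89.3, Jun at 62.2, 22.1 and 28.6, Ier2 at 65.3, 26.0 and 26.5 and Egr1 at 34.6, 9.38 and 6.16. Fosb, at 15.8, 1.02 and 1.70, was the coding gene farthest above both other libraries in control 1. Jund at 68.2, 61.6 and 75.3, Fosl2 at 79.6, 60.3 and 53.0 and Junb at 76.1, 63.6 and 52.0 were closer between libraries. Klf4 and Klf6, also early-induced factors, had control 1 highest as well. In the cornified envelope list 4 of 14 (Sprr2g, Sprr2e, Sprr1a and Sprr2i) were apart on the same side, against the same 1.88%. They are members of 1 family with near-identical copies and are not separate observations. Smooth muscle and stromal RNA was highest in the same library, with sums of 496 and 358, and its part in these values was not tested. The epithelial sum of control 1 (5344) lay between those of the other libraries. That sum does not show which cells the immediate early or Sprr RNA came from, and their source was not tested.

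With list members included, the coding genes farthest above both other libraries in control 1 were Fosb, Actg2, Postn, Sprr2e, Myl9, Tex2 (91.4, 20.5 and 18.7) and Padi2. Ahead of these stood 5 small noncoding RNA genes, Snora33, Snord89, Mir1938, Mir8116 and Rnu11, which had between 42.5 and 114 FPKM in control 1 and were listed at 0 in the other two. On the low side control 1 was apart for 85 symbols (0.766%). Rpl34-ps1, Mir6386 and Taf10, a subunit of general factor TFIID, were listed at 0 there. Rpl34-ps1 is named as a ribosomal pseudogene but is listed with a coding transcript. Hddc3 was at 1.40, 9.88 and 11.004 and Alox12e, a lipoxygenase, at 1.37, 13.6 and 9.05. Further genes in that direction, named after their values were seen, were Stra6, a membrane transporter of vitamin A, at 1.30, 8.44 and 14.5, the NADPH oxidase Nox1 at 3.71, 19.2 and 30.4, Alox15 at 5.97, 32.1 and 19.3, and Plat, tissue plasminogen activator, at 33.4, 103.6 and 157.

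In control 2 the genes farthest above both others were Pttg1, securin, at 4.94, 19.7 and 3.72, Msln, S100a4 at 12.8, 29.2 and 10.8, Kap at 44.8, 96.0 and 2.61 and S100a6 at 71.1, 151 and 70.8. On the low side 55 symbols (0.496%) were apart. The transcript 1500012F01Rik and Snora78 were listed at 0 there. Ifi44l, an interferon-induced gene, was at 74.1, 0.229 and 36.0, and Trim12a, of the tripartite motif family, at 11.4, 0.333 and 10.6. Rpl29, a ribosomal protein with several processed copies in the genome, was at 243, 28.3 and 424. How fragments were shared among its copies was not tested.

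In control 3 the symbols farthest above both others were the small nucleolar RNAs Snord1b and Snord96a, each listed at 4746 FPKM, and Snord32a at 1904, with Mir3102 at 26.5 and Fdx1l at 20.9; all 5 were listed at 0 in controls 1 and 2. The Snord models are 77 bases (Snord1b and Snord96a) and 81 bases (Snord32a) long, and over such a length a few fragments give a very high FPKM. On the high side, Calb1, named above, stood farthest out among the coding genes with a value above 0 in all 3 libraries. On the low side 41 symbols (0.37%) were apart. Muc20 was listed at 0, Kap was at 2.61, Akap12, a scaffold for protein kinase A, was at 9.64, 8.74 and 1.81 and Car9, a carbonic anhydrase induced by low oxygen, at 65.2, 86.1 and 19.9. Snora70 was the other of the 5 farthest, at 13.2, 11.9 and 3.73. Prom1, an apical membrane protein of epithelium, at 788, 731 and 337, and the imprinted gene Peg10, at 357, 343 and 167, were abundant genes in the same direction, named after their values were seen.

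The typical gene varied far less than these. Over the 11091 symbols with a mean of at least 1 FPKM, the median CV between the 3 libraries was 9.99%. Over 2 libraries, which is not the same measure as over 3, it was 6.13% without control 1, 9.77% without control 2 and 9.14% without control 3. Over all 3 it was 14.2% from 1 to 5 FPKM, 8.91% from 5 to 20, 8.34% from 20 to 100 and 9.61% from 100 to 1000, and it was higher again, at 16.6%, over the 31 symbols at 1000 or more. The half-width of the deposited interval fell from 11.5% in the lowest of these ranges to 0.658% in the highest; it covers the error of the estimate within a library, not differences between samples, and narrows with the number of fragments. The deposited bounds were summed per symbol and divided by the library factor. For symbols with several transcripts the result is therefore not itself a deposited interval. In 66.1% of symbols (7333) these intervals of at least 1 pair of libraries did not overlap. Among the 500 most abundant symbols the most even were Tecr, an enzyme of fatty acid elongation, at 104.2, 104.8 and 105.6, Snrpb, a spliceosome protein, at 106, 105 and 107, Slc39a1, a zinc importer, at 150.3, 148 and 147, Cst3, cystatin C, at 154, 151 and 154, and Rps6ka1, a ribosomal S6 kinase, at 108, 105 and 107.

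Controls 2 and 3 were the closest pair. They were at least 2-fold apart for 248 symbols (2.24%), against 458 (4.13%) for controls 1 and 2 and 602 (5.43%) for controls 1 and 3. Across symbols, Pearson's r of log2(scaled FPKM + 1) was 0.975, 0.969 and 0.959 in that order; symbols are not independent replicates and no p is given. By class, the median CV was 25.5% for secreted products, 13.7% for structural genes, 12.9% for receptors, 14.4% for transcription factors and 47.9% for markers of other cell types. Markers of other cells therefore varied most between the control libraries and receptors least among these classes, each above the 9.99% of all symbols with a mean of at least 1.

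**Figure D5:**
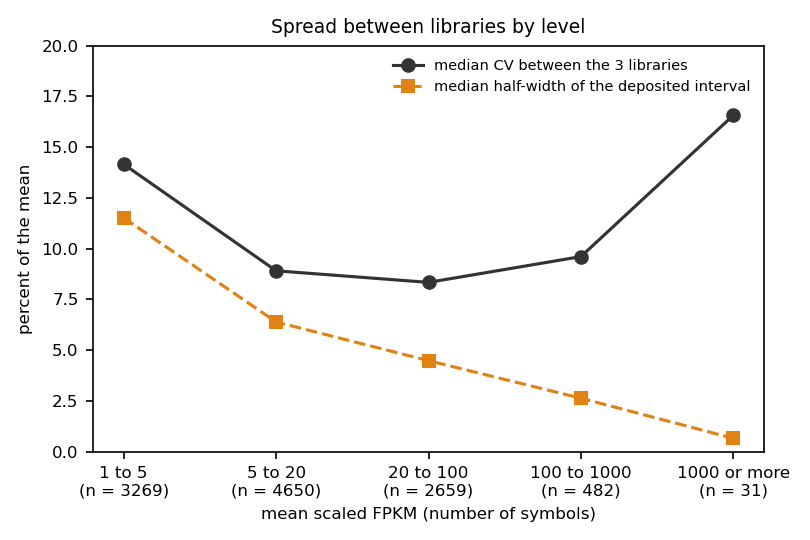
Median CV between the 3 control libraries and median interval half-width, both in percent of the mean, by range of mean scaled FPKM. The CV is that of scaled FPKM, and the interval is that of the deposited bounds summed per symbol. The spread between libraries is lowest at 8.34% from 20 to 100 FPKM and reaches 16.6% at 1000 or more, where the interval half-width is 0.658%.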

How the data were processed

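Uterine epithelium RNA of 3 control libraries was analysed; the 5 cKO libraries were not used. The submitters' processing notes name TopHat and Cufflinks with the mm10 build, and bcl2fastq 1.8.3. Their order, the TopHat and Cufflinks versions, the annotation release and strand use are, in the sources used here, not given. The authors deposited FPKM, estimated for each library on its own, with lower and upper confidence bounds (95% in Cufflinks) and a status per RefSeq transcript. The deposited coverage signal, per the file headers a depth over each transcript, was used only beside transcripts with a status other than OK. No read counts were used; depth was estimated from the interval widths of long transcripts.

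FPKM of 34535 transcripts was summed per symbol, and so were the deposited bounds. Symbols with a status other than OK in any control (C3, Ltf, Mir6978, Eftud2, Ptprs and Nolc1) were dropped. Each library was divided by its median ratio to the geometric mean over 10610 symbols. The CV is the SD over the mean of 3 libraries. A symbol was called apart in a library at a fold of at least 2 against each other library after adding 0.1, with a mean of at least 1. No test was made, since there is 1 group. The measures were checked on simulated libraries. Python 3.11.15, pandas 2.3.3, NumPy 2.4.6 and matplotlib 3.10.9 were used. RefSeq promoters were of GRCm38.p6.

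The libraries, the 45 gene lists and the alternatives were chosen with earlier results of these data known. Of 846 list entries, 839 matched a listed symbol, 10 under another name. The TGF-beta ligand, SMAD and antagonist genes were added after the data were seen. Genes were named by rule: the 5 proposed markers, the 25 most abundant symbols, up to the 4 highest members of each list (2 in short lists), the 5 symbols (mean of at least 5) farthest above and below in each library, the 5 with the lowest CV among the 500 most abundant, and abundant symbols with a status other than OK. Some members are not reported here. Further list members were named after their values were seen, to show defining genes and genes at or near 0. Alternatives were the scaling, the status filter, symbols with 1 transcript, noncoding symbols, the fold, level and pseudocount settings, the deposited intervals, and leaving out each library.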

Additional observations from a re-analysis of the deposited data

How the results depend on the processing

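Of 146 alternative values for 14 results, 94 stayed close to the reported value (within 1 SD between libraries, or within 1.5 times for a count) and 52 did not. This tally includes values that could not move. The share of FPKM held by given symbols does not change under a factor per library, so shares without scaling and as TPM are no check. The limit of 1 SD was also wide for the smooth muscle share (0.0634% with an SD of 0.0553), so that 0.0317% without control 1 counted as close. The count of symbols at 1 FPKM or more moved under none. No paired analysis was possible because only 1 group was analysed.

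With symbols of 1 transcript only, which leaves fewer genes in the total, the 10 most abundant held 20.5%, the 100 most abundant 42.6%, keratins 1.27% and defence genes 8.28%. With Ltf and C3 kept as listed, defence genes held 6.86%. At a mean of at least 0.1 the median CV was 12.2%.

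Counts of symbols apart, in the order control 1 high, control 1 low, control 2 high, control 2 low, control 3 high, control 3 low, were 497, 293, 96, 146, 221 and 138 at a fold of at least 1.5 and 67, 37, 8, 22, 16 and 15 at 3. They were 92, 37, 7, 23, 23 and 14 at a mean of at least 5, 408, 151, 68, 96, 139 and 76 at 0.1, and 130, 51, 15, 34, 44 and 22 with a pseudocount of 1. As TPM, control 1 low was 180, control 2 high 62 and control 3 low 73; the share of high calls was then 61.3% in control 1 against 71.0%, and 43.4% in control 2 against 32.1%. As TPM, all 14 smooth muscle genes tested were still apart in control 1, 8 of 16 stromal, 6 of 14 immediate early, and 4 of 6 neutrophil genes in control 3. Over all 12380 symbols tested as TPM, 285 were apart on the high side in control 1 and 116 in control 3.

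Leaving out 1 library gave 10685 to 10822 symbols at 1 FPKM or more, 15.6% to 16.2% in the top 10, 35.1% to 35.6% in the top 100, 0.916% to 1.01% in keratins and 6.22% to 6.59% in defence genes. The median CV was 6.13% without control 1 and up to 9.77% otherwise. The stromal share ran from 0.0534% to 0.0790%, and the smooth muscle share from 0.0317% without control 1 to 0.0827%. With 2 libraries, high and low calls mirror each other: 327 to 364 and 147 to 257 in control 1, 90 to 147 and 155 to 327 in control 2, 155 to 257 and 90 to 364 in control 3. The fold between 2 single libraries has no replicate check.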

Other observations

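Of the symbols with a mean of at least 5 FPKM, 17 were listed at 0 in 1 or 2 of the 3 libraries, and 12 of these have only noncoding transcripts. The coding ones include Muc20, Taf10 and Fdx1l, whose status was OK where they are listed at 0. Among 3354 symbols with several transcripts and a mean of at least 1, the same transcript led in all 3 libraries in 2952 (88.0%).

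Several metabolic genes outside the lists were abundant and uneven, and were picked after their values were seen. Arg1, arginase 1, stood at 915, 451 and 425 FPKM in controls 1, 2 and 3. Sat1, which acetylates polyamines, stood at 847, 498 and 461, and Tgm2, a transglutaminase, at 1501, 932 and 753. Control 1 was highest for all 3 of these, as it was for the Sprr family. Dgat2, which completes triglyceride synthesis, was even, at 605, 574 and 644.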
